A study of Mus musculus with 15 samples.

Results

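Pancreatic islets of C57BL/6 mice that were given an adenovirus for ca-Nfatc2 were set against islets given an adenovirus for GFP, gene by gene, 48 hr after transduction. The comparison used 10 of the 15 RNA-sequencing libraries of the study, chosen by the virus in their labels: 5 ca-Nfatc2 libraries and 5 GFP libraries. The study asked which islet genes respond to constitutively active NFAT factors, in view of their part in β-cell proliferation and insulin secretion. On each of 5 days islets of 6 mice were pooled and each pool was shared out between the viruses, so replicates 1 to 5 stand for the days and each virus has 1 library from each of them. In ca-Nfatc2, serines of the N-terminal regulatory domain were replaced by alanine, so that the protein does not need calcineurin to enter the nucleus. The transgene was driven by the CMV promoter, which is active in most cell types, so that expression was not limited to β-cells. The GFP islets went through the same isolation, culture and transduction, and islets without virus were not analysed here. The other 5 libraries, from the same pools with ca-Nfatc1, helped to estimate the spread and counted in the filter on low genes. Otherwise they were used only to test whether a change differed between the ca-NFATs.

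NFAT proteins are transcription factors that stay in the cytoplasm while their serines carry phosphate. When Ca2+ rises, calmodulin switches on the phosphatase calcineurin, which removes the phosphate, and NFAT moves to the nucleus and binds DNA with the core letters GGAAA, in T cells often beside AP-1 (Fos and Jun). In islets, calcineurin and NFAT are known for their role in β-cell growth and in the expression of the insulin gene, and in T cells for the switching on of cytokine genes.

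The values are expected counts per gene divided by a size factor for each library, called normalized expected counts below. Depth was 13.4 to 18.9 M expected counts with GFP and 13.5 to 19.8 M with ca-Nfatc2, and the totals after normalization were 16.9 to 18.1 M and 16.6 to 17.2 M. Pearson's r between libraries, over log2 values of all genes tested, was 0.984 to 0.990 within GFP and 0.974 to 0.988 within ca-Nfatc2, and 0.872 to 0.904 between them. These are whole islets, so fewer cells of a type and less RNA per cell cannot be told apart for any gene below. Levels are given as mean ± SD over 5 libraries unless each library is given.

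Of 20308 entries in the table, 14151 passed the filter and were tested. With ca-Nfatc2, 5055 genes (35.7% of those tested) were higher than with GFP and 4648 (32.8%) were lower, at a limma adjusted p below 0.05. The counts of each gene list below are to be read beside these shares. At least 2-fold higher were 1851 genes (13.1%) and at least 2-fold lower 1026 (7.25%). The larger the change, the more the rises outnumbered the falls: at least 4-fold were 841 rises and 150 falls, and at least 16-fold 240 rises and 4 falls. Every ca-Nfatc2 library was above every GFP library for 27.7% of the genes and below for 24.3%. Of the genes that passed, 9242 moved in their direction on all 5 days. Changes are given as log2 fold changes, here called log2 changes, with their standard error (SE). Their median SE was 0.102, and 0.258 for the 2853 genes with a mean under 100 in the higher group. The median SD of log2 values between libraries was 0.135 for GFP and 0.136 for ca-Nfatc2, over the genes with a ca-Nfatc2 mean of at least 100.

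**Figure D1:**
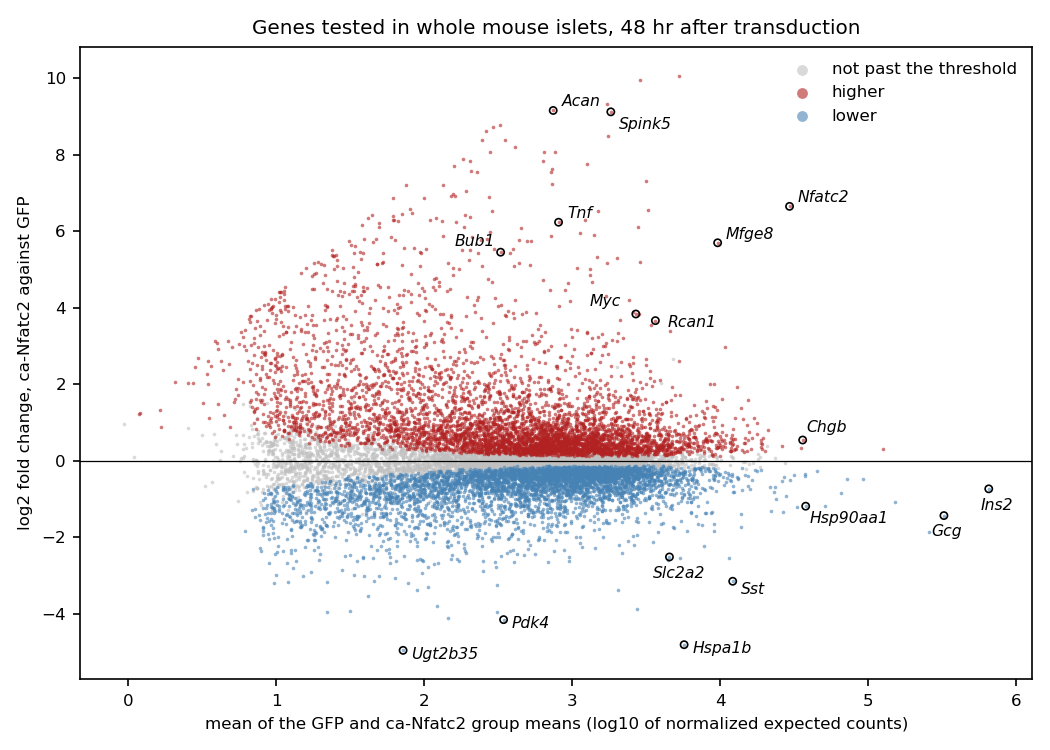
Each point is 1 of the 14151 genes tested, except that the 22 entries with a date in place of a symbol are not shown. The x axis is the mean of the GFP and ca-Nfatc2 group means (log10 of normalized expected counts). The y axis is the log2 change of ca-Nfatc2 against GFP. Rises reach further from 0 than falls: of all genes tested, 240 rose and 4 fell by at least 16-fold.

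Nfatc2 itself (chromosome 2, 168476410 to 168601657, minus strand, mm10) was at 414, 601, 693, 618 and 504 normalized expected counts in GFP replicates 1 to 5. It was at 37600.3, 58781, 54344, 89098 and 52659 in the ca-Nfatc2 replicates, so the groups lay far apart (log2 change 6.66, SE 0.18, limma adjusted p = 2.71e-15). Reads of the virus and of the gene in the islet cells were summed in 1 value and could not be told apart. The highest value was that of replicate 4, and several results below also stand apart in that library. Nfatc1 did not pass, with levels of 247 ± 49.3 in GFP islets and 306 ± 88.7 in ca-Nfatc2 islets (limma adjusted p = 0.168), although it passed at limma adjusted p = 0.00944 without ca-Nfatc2 replicate 1. Nfatc4, another calcineurin-dependent NFAT, rose from 16.4 ± 2.88 to 78.5 ± 46.05 (log2 change 2.04, limma adjusted p = 5.62e-06).

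Genes of the calcineurin pathway moved in both directions: of 24 tested, 11 rose and 5 fell, Nfatc2 included. These were 45.8% and 20.8% of the list, against 35.7% and 32.8% of all genes tested. Rcan1, an inhibitor of calcineurin that NFAT itself is known to switch on, stood at 408, 509.8, 523, 515 and 516 in the GFP libraries and at 4668, 4358, 4900.4, 12306 and 7878 in the ca-Nfatc2 libraries. Its lowest value with ca-Nfatc2 was far above its highest GFP value, and replicate 4 stood highest (log2 change 3.67, SE 0.21, limma adjusted p = 4.96e-11). Homer2, a scaffold protein known to compete with calcineurin for NFAT, rose from 9.47 ± 5.502 to 241 ± 42.99 (log2 change 4.67, limma adjusted p = 4.29e-11). Akap5, which anchors calcineurin, rose by 0.99 on the log2 scale, and the catalytic subunit Ppp3ca by 0.40. The kinases that return NFAT to the cytoplasm did not move together, with Dyrk1a at -0.31, Gsk3b at -0.30, Csnk1a1 at 0.27 and Dyrk2 at 0.58, all 4 past the threshold. Of the calmodulin genes Calm2 and Calm3, Calm3 fell (log2 change -0.45), while Calm2 was at a log2 change of 0.05 and did not pass (limma adjusted p = 0.65).

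The DNA before the start of Rcan1 and of Tnf, a cytokine gene that NFAT is known to bind in T cells, is shown because both rose with ca-Nfatc2 and both hold the NFAT core letters. These are the 250 bases before a RefSeq start in GRCm38.p6, 5′ to 3′ on the gene's strand, with each GGAAA, or TTTCC where the match is on the other strand, in capitals. The Rcan1 stretch (chr16:92400079-92400328, minus strand) lies before the start of its shorter transcript and holds 3 matches, which begin 227, 193 and 163 bases before the start. The 250 bases before its other start hold 0. The Tnf stretch (chr17:35202008-35202257, minus strand) holds 3 matches, at 181, 77 and 54 bases before the start.
Rcan1: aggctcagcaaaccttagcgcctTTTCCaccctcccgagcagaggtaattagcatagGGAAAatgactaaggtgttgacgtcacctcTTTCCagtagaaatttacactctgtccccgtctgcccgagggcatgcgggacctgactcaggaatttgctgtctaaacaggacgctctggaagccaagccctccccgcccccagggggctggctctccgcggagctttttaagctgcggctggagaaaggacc
Tnf: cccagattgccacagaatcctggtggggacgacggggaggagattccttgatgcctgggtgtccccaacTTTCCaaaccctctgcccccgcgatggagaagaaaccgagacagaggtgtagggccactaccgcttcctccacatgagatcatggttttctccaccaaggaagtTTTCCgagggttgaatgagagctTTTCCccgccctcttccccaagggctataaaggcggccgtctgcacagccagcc

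Such a short word is common. GGAAA on either strand is in 55.6% of all 32851 starts in the RefSeq table and in 54.0% of the 13648 starts of genes tested, and in 14 of 20 starts of the NFAT targets of lymphocytes. A match is a description of the letters and does not show binding.

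Of 36 genes known as NFAT targets in lymphocytes, 20 were expressed above the filter in islets, of which 11 rose and 5 fell. Because genes low with GFP could pass the filter only when high with ca-Nfatc2 or ca-Nfatc1, these counts support no direction for the list. The other 16, among them Il2, Il4, Csf2, Ifng, Fasl and Cd40lg, did not pass the filter. Tnf (chromosome 17, 35199381 to 35202007, minus strand) stood at 23.03, 12.1, 19.0, 11.5 and 32.2 in the GFP libraries and 1156, 1053, 1048, 3164 and 1584 in the ca-Nfatc2 libraries. No values overlapped, and replicate 4 was again highest (log2 change 6.24, SE 0.30, limma adjusted p = 5.01e-12). Pdcd1, the receptor PD-1 of exhausted T cells, was at 0 in all 5 GFP libraries and at 58.9, 54.2, 59.98, 142 and 65.7 in the ca-Nfatc2 libraries. With a floor of 3 counts per library, its mean was at least 23.3-fold higher with ca-Nfatc2, and its fitted fold change depends on the 1 that was added to all values.

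The orphan receptors of the Nr4a family, which NFAT induces in T cells, all rose. Nr4a3 stood at 6.72, 12.1, 8.94, 13.3 and 12.9 in the GFP libraries and 338, 486, 426, 1055 and 609 in the ca-Nfatc2 libraries (log2 change 5.55, SE 0.25, limma adjusted p = 2.22e-12). Nr4a1 went from 118 ± 6.77 to 392 ± 97.4 (log2 change 1.695, limma adjusted p = 2.87e-09) and Nr4a2 from 126 ± 8.71 to 275 ± 60.97 (log2 change 1.08, limma adjusted p = 1.93e-06). The early growth response factors Egr2 and Egr3 also rose, by 1.58 and 3.37 on the log2 scale, as did the receptor genes Lag3 (1.72) and Il2ra (1.93). Havcr2, which encodes the checkpoint receptor TIM-3, fell (log2 change -1.51), as did Tnfrsf9 (-0.97) and Tox (-0.54). Rgs16 was at 474 ± 53.3 and 482 ± 89.8 and did not pass (limma adjusted p = 0.927).

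AP-1 genes, among them the partners of NFAT in T cells, fell more often than they rose. Of 12 tested, 8 fell (66.7%, against 32.8% of all genes tested) and 1 rose (8.33%, against 35.7%). Without GFP replicate 4 only 5 fell. Atf3, an AP-1 factor of the stress response, stood at 414, 425, 412, 615 and 659.5 in the GFP libraries and at 87.5, 84.7, 108, 220.4 and 159.5 in the ca-Nfatc2 libraries, so that no values overlapped (log2 change -1.995, SE 0.23, limma adjusted p = 6.91e-07). Fos, at 75.2 to 96.1 with GFP and 34.4 to 53.1 with ca-Nfatc2, fell (log2 change -1.01, limma adjusted p = 9.08e-06) and Jun fell too (log2 change -0.91). Maff, a small partner of the AP-1 factors, was the one that rose, from 209 ± 22.02 to 893 ± 226 (log2 change 2.07, limma adjusted p = 1.64e-10). Junb was at 289 ± 83.1 and 240.1 ± 99.1 and did not pass (limma adjusted p = 0.28), except without ca-Nfatc2 replicate 4 (limma adjusted p = 0.0404).

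Among the largest rises were genes that islets with GFP hardly expressed. In 27 genes every GFP library was at 5 normalized expected counts or less and every ca-Nfatc2 library at 100 or more, while in 0 genes it was the other way round. Ccr3, the eotaxin receptor, stood at 0.96, 0, 5.59, 3.33 and 1.84 in the GFP libraries and 741, 658, 876, 1048 and 768 in the ca-Nfatc2 libraries (log2 change 8.20, limma adjusted p = 1.04e-12). Slc6a13, a carrier for the neurotransmitter GABA, was at 1.92, 4.03, 5.59, 7.803 and 0.921 and 1118, 802, 869, 2502 and 1165 (log2 change 8.07, limma adjusted p = 1.25e-12). For such genes the fitted fold depends on the added 1, but in both the lowest ca-Nfatc2 value was 658 normalized expected counts or more and the highest GFP value 7.80 or less.

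Further rises of this size were those of Mmrn1, which encodes a carrier of coagulation factor V (384 to 672 with ca-Nfatc2), of Emilin3, an extracellular matrix glycoprotein (466 to 673), and of C1qtnf2, a secreted protein of the C1q family (1239.8 to 2120.0). All 3 were at 10.1 or less in every GFP library. Among genes with substantial levels in GFP islets, Mfge8, a secreted protein that tags dying cells for uptake by phagocytes, stood at 300.4, 309, 389, 416 and 399 in the GFP libraries and 21075, 20063, 21016, 16907 and 15531 in the ca-Nfatc2 libraries. Unlike Tnf, Mfge8 was not highest in replicate 4 (log2 change 5.70, SE 0.11, limma adjusted p = 3.1e-17). Serping1, the inhibitor of complement C1, rose from 2460.0 ± 709 to 19086 ± 4444 (log2 change 2.97, limma adjusted p = 6.12e-10). The actin-severing factor Dstn rose from 7683 ± 632 to 23082 ± 2836 (log2 change 1.58, limma adjusted p = 2.96e-11) and the tubulin gene Tuba1b from 5415 ± 333 to 20778 ± 1625 (log2 change 1.94, limma adjusted p = 1.09e-13).

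Of the genes that other tissues are known for, some rose and some fell. Here too genes low with GFP passed the filter only when high with ca-Nfatc2 or ca-Nfatc1, so that the counts support no direction for these lists. Of 16 cartilage genes tested 8 rose and 4 fell, and the main cartilage collagen Col2a1 did not pass the filter. Col9a1, a collagen bound to the surface of cartilage fibrils, stood at 0, 1.34, 0, 2.22 and 0.921 in the GFP libraries and 270.1, 195, 162, 74.4 and 124 in the ca-Nfatc2 libraries (log2 change 6.48, limma adjusted p = 3.39e-11), while Hapln1, which links aggrecan to hyaluronan, fell (log2 change -2.64). Of 18 plasma protein genes of the liver tested 10 rose and 4 fell, and albumin (Alb) did not pass the filter. The lipoprotein genes Apoa5 (log2 change 6.28, limma adjusted p = 1.41e-10) and Apoc3 (log2 change 4.81) rose, whereas Apoe fell (log2 change -1.25). Serpina3n, an acute phase protease inhibitor, was at 109, 24.6, 48.5, 821 and 299.7 in the ca-Nfatc2 libraries and 29.6 to 201 with GFP, so the groups overlapped and it did not pass (limma adjusted p = 0.42). Among sodium channel and nicotinic receptor genes, Scn4a, the channel of skeletal muscle, was at 0.96 to 6.45 with GFP and 503 to 590.1 with ca-Nfatc2 (log2 change 6.91, limma adjusted p = 1.31e-13), and Chrnb2, a neuronal receptor subunit, rose from 1241 ± 54.3 to 4675 ± 232 (log2 change 1.91, limma adjusted p = 2.04e-15). In that list 6 of 14 rose and 5 fell, or 3 with equal totals, without the filter or without any 1 of GFP replicates 2, 3 and 5 and ca-Nfatc2 replicate 1.

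Genes for DNA replication and mitosis rose almost throughout. Part of these genes were picked by the study on the same libraries, so the counts are not independent evidence of their direction. Of 38 genes of G2 and mitosis tested 38 rose and 0 fell, with a median log2 change of 2.27, and 32 rose at least 2-fold. Of 43 replication genes 40 rose and 0 fell (median 1.20, 23 at least 2-fold). Of 23 genes of G1 and S phase entry 14 rose and 3 fell (median 0.36). All genes tested had 35.7% higher, 32.8% lower and a median of 0.006.

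**Figure D2:**
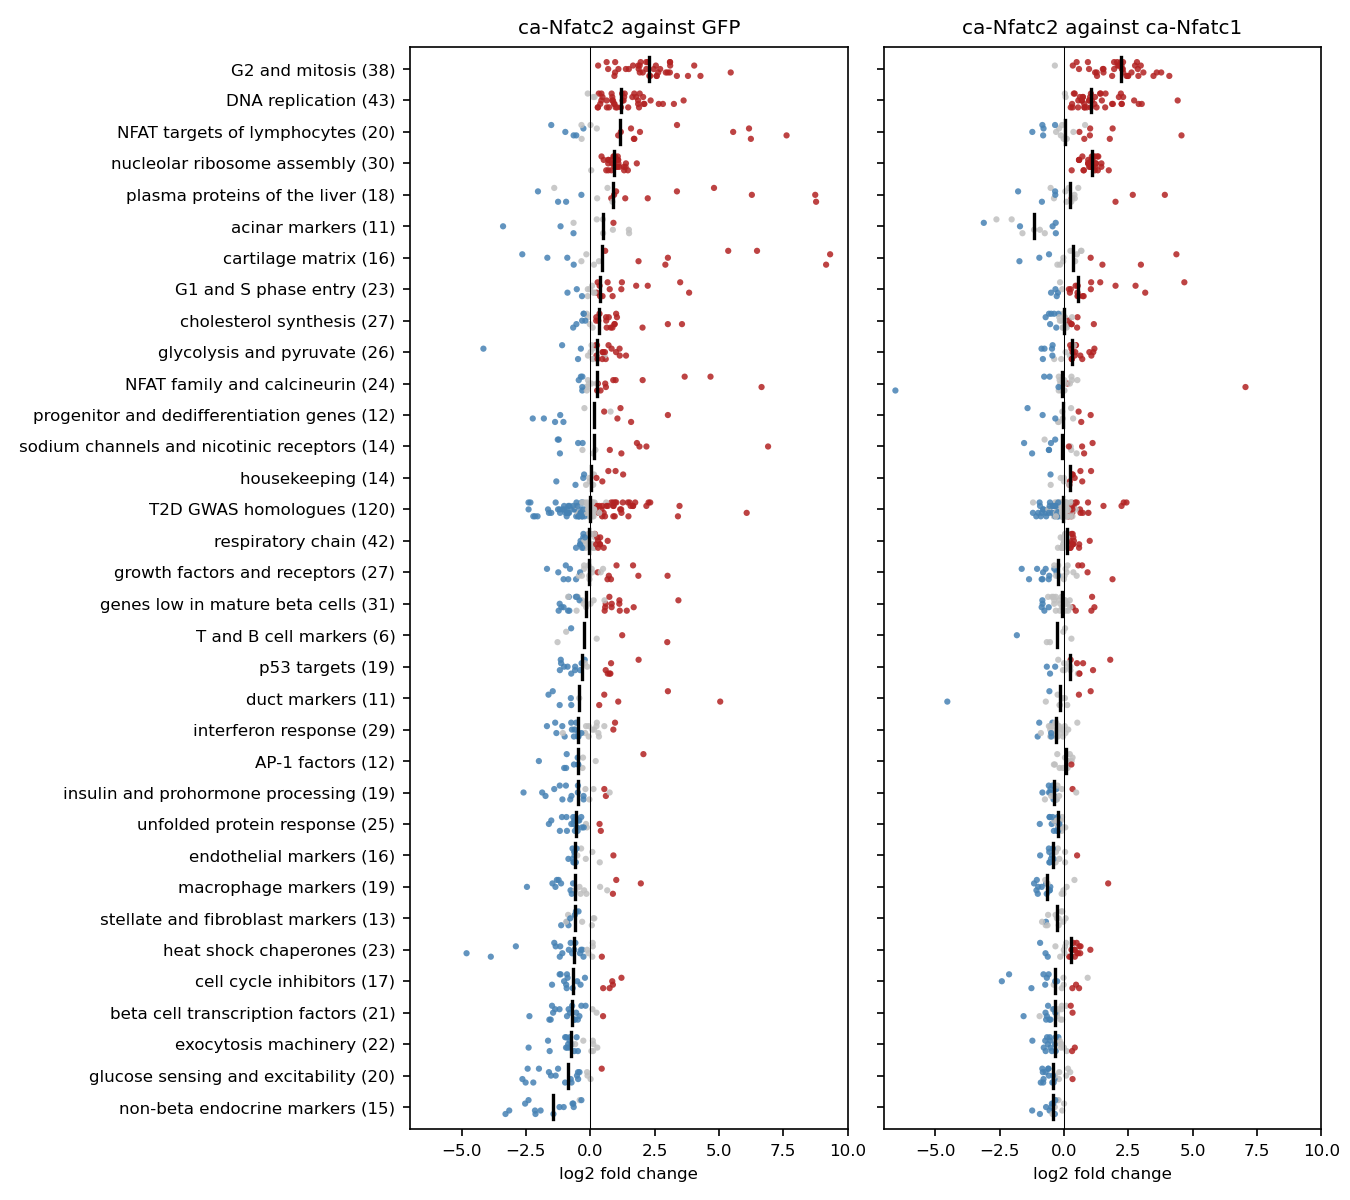
Each row is 1 gene list (number of members tested in parentheses) and each point 1 member at its log2 change, on the left of ca-Nfatc2 against GFP and on the right against ca-Nfatc1, with red for higher, blue for lower, grey for not past the threshold and a black bar for the median. On the left, G2 and mitosis (median 2.27), replication (1.20) and nucleolar ribosome assembly (0.94) lie to the right of 0, and non-β endocrine markers (-1.43), glucose sensing (-0.87) and exocytosis (-0.76) to the left.

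Bub1 (chromosome 2, 127801122 to 127831865, minus strand), a kinase of the spindle checkpoint, stood at 14.4, 9.41, 19.0, 12.2 and 13.8 in the GFP libraries and 830.5, 651, 705, 512 and 521 in the ca-Nfatc2 libraries (log2 change 5.46, SE 0.18, limma adjusted p = 4.3e-14). Ndc80, which ties the kinetochore to microtubules, was at 42.2, 22.8, 34.6, 35.5 and 40.4 and 798, 578, 633, 424 and 533 (log2 change 4.04, SE 0.16, limma adjusted p = 4.72e-13). In both genes replicate 4 was the lowest of the ca-Nfatc2 libraries, and the groups lay far apart. Cdc20, which activates the anaphase-promoting complex, was at 15.3, 9.41, 26.8, 12.2 and 20.3 and 233, 230.3, 254, 828 and 324 (log2 change 4.28, SE 0.32, limma adjusted p = 1.89e-09), and here replicate 4 stood far above the others. The mitotic kinase Cdk1 rose by 3.80, the topoisomerase Top2a by 3.09 and the kinases Ttk and Nek2 by 3.10 each on the log2 scale. The smallest rises were those of the checkpoint genes Bub3 (0.31) and Mad2l1 (0.64).

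In S phase, Dtl, which helps to destroy the licensing factor Cdt1 once DNA is copied, stood at 20.1, 15.3, 19.0, 26.6 and 23.03 in the GFP libraries and 303, 219.7, 306, 250.2 and 253 in the ca-Nfatc2 libraries (log2 change 3.63, SE 0.17, limma adjusted p = 3.98e-12). Pole, the catalytic subunit of DNA polymerase epsilon, was at 20.1, 33.6, 42.5, 31.1 and 28.6 and 338, 282, 329, 314 and 234 (log2 change 3.25, SE 0.18, limma adjusted p = 2.93e-11). In both genes the groups did not overlap. The thymidine kinase Tk1 rose from 16.4 ± 3.77 to 124 ± 35.5 (log2 change 2.82, limma adjusted p = 1.39e-09), Uhrf1, which carries DNA methylation through replication, by 2.66 and the licensing gene Cdc6 by 2.35 on the log2 scale. Those that did not pass were Gins3, Gins4 and Rfc5. Rfc5 (limma adjusted p = 0.0573) passed with equal totals (0.0151), with the replicate block (0.0343), without the filter (0.0298) and without ca-Nfatc2 replicate 4 (0.0256). Gins4 was at 340.2 ± 27.6 and 318 ± 23.03 (limma adjusted p = 0.279, and 0.035 with a log2 change below 0 under quantile normalization).

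Of the G1 regulators, the cyclin E gene Ccne1 rose and the D-type cyclins did not. Ccne1 rose from 58.7 ± 6.35 to 280.1 ± 35.3 (log2 change 2.23, limma adjusted p = 2.58e-10), and Cdk2, the partner kinase of cyclin E, by 0.87 on the log2 scale. Ccnd1 was at 2189 ± 196 and 2046 ± 174 and did not pass (limma adjusted p = 0.25), nor did Ccnd3 (log2 change -0.01), and Ccnd2, the cyclin D known as the main one of mouse β-cells, fell (log2 change -0.88). E2f8, a repressor E2F of S and G2, rose from 6.32 ± 3.57 to 75.5 ± 18.9 (log2 change 3.49, limma adjusted p = 9.93e-07) and E2f7 from 39.96 ± 4.48 to 141 ± 22.1 (log2 change 1.78, limma adjusted p = 4.67e-07), while the activator E2f1 rose from 225 ± 26.7 to 381 ± 34.6 (log2 change 0.76, limma adjusted p = 4.59e-06). The pocket protein genes Rb1 and Rbl2, which hold E2F back, fell, with log2 changes of -0.32 and -0.52.

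The inhibitors of the cell cycle moved mostly the other way: 12 of 17 fell and 5 rose (median log2 change -0.68). Under quantile normalization 2 rose, and the calls of Cdkn1c, Cdkn2a and Cdkn2c were lost (limma adjusted p = 0.0763, 0.4 and 0.109). Cdkn2b (p15) fell from 216 ± 11.9 to 94.6 ± 12.7 (log2 change -1.19, limma adjusted p = 1.67e-08), Gadd45a from 568 ± 69.4 to 255 ± 20.7 (log2 change -1.15, limma adjusted p = 9.32e-09) and Gadd45g from 513 ± 71.7 to 187 ± 53.4 (log2 change -1.48, limma adjusted p = 2.41e-07). Cdkn1b (p27) fell as well (log2 change -0.94). Those that rose were Cdkn1a (p21, 0.75), Cdkn2a (1.21), Cdkn2c (0.50), Cdkn2d (0.88) and Cdkn1c (p57), which went from 18.99 ± 4.25 to 35.2 ± 8.298 (log2 change 0.85, limma adjusted p = 0.000401).

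The DNA before Dtl and Cdc20 is shown because their lists, replication and mitosis, had 0 falls and hold words known for cell cycle promoters. In Dtl (chr1:191575545-191575794, minus strand) capitals mark the E2F word TTTNGCGC, which begins 8 bases before the RefSeq start. In Cdc20 (chr4:118437344-118437593, minus strand) they mark the CHR word TTTGAA, known from promoters that peak in G2, which begins 18 bases before the start.
Dtl: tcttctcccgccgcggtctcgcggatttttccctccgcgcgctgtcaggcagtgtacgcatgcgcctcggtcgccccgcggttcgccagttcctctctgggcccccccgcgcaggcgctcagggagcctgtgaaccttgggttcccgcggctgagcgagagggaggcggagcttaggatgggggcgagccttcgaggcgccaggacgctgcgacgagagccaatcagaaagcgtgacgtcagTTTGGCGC
Cdc20: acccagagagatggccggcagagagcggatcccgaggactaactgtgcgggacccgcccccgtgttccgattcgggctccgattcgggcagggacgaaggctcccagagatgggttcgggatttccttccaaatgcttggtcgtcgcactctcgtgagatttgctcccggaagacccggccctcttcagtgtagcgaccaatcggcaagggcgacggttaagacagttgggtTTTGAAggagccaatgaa

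TTTGAA on either strand was in 15 of 35 starts of the mitosis list (42.9%), against 10.7% of the starts of genes tested. CCAAT on either strand was in 27 of these 35 (77.1%), against 34.8%. Lists that mostly fell held it too. It was in 86.4% of the starts of the unfolded protein response list and 61.1% of those of the cell cycle inhibitors. For the cholesterol list, in which more genes rose than fell, the share was 72.7%. TTTNGCGC was in 7 of 41 starts of the replication list (17.1%) and in 5 of 21 of the G1 and S list (23.8%), against 1.83%. Of the 38 mitosis genes 32 had a start in the table, of the 43 replication genes 35 and of the 23 G1 and S genes 16.

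Myc and the genes of ribosome assembly, a known group of Myc targets, rose as well. Myc (chromosome 15, 61985391 to 61990374, plus strand) stood at 242, 325, 394, 417 and 401 in the GFP libraries and 4228, 5642, 5488, 4821 and 5026 in the ca-Nfatc2 libraries, with no overlap (log2 change 3.84, SE 0.12, limma adjusted p = 1.52e-14). Of 30 nucleolar genes tested 29 rose and 0 fell (median 0.94). The nucleolar proteins Npm1 and Ncl rose from 7725 ± 539 to 20233 ± 1936 (log2 change 1.39, limma adjusted p = 1.11e-10) and from 10619.8 ± 981 to 23276 ± 1765 (log2 change 1.13, limma adjusted p = 6.17e-10). Nhp2, a part of the particles that modify ribosomal RNA, rose from 357 ± 20.1 to 1261 ± 172 (log2 change 1.81, limma adjusted p = 7.49e-11). The one that did not pass was the polymerase subunit Polr1c (642 ± 84.6 and 657 ± 68.6, limma adjusted p = 0.758).

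Metabolic genes split by pathway. Of 27 genes of cholesterol synthesis and uptake 17 rose (63%, against 35.7% of all genes tested) and 6 fell (22.2%, against 32.8%). Stard4, a carrier of cholesterol, stood at 509.5, 400.4, 455, 423 and 494 in the GFP libraries and 2003, 1771, 1889.9, 1838 and 1806 in the ca-Nfatc2 libraries, with no overlap (log2 change 2.03, SE 0.07, limma adjusted p = 5.25e-14). The enzyme Sqle, which oxidizes squalene, fell (log2 change -0.66), and the synthase Fdft1 was at 1026 ± 81.5 and 935 ± 46.6 (limma adjusted p = 0.143, and 0.0448 with the day as a replicate block). In glycolysis and pyruvate metabolism, 15 of 26 genes rose (57.7%, against 35.7% of all genes tested) and 4 fell (15.4%, against 32.8%). Pfkp rose from 946 ± 119 to 2475 ± 270.2 (log2 change 1.39, limma adjusted p = 1.99e-10), and Ldha, lactate dehydrogenase, which mature β-cells hardly express, from 493 ± 93.9 to 1130.4 ± 408 (log2 change 1.15, limma adjusted p = 2.91e-05). Pdk4, a kinase that blocks the use of pyruvate in mitochondria, fell from 649 ± 163 to 39.8 ± 22.6 (log2 change -4.15, limma adjusted p = 2.71e-09). Genes of the respiratory chain showed no common direction, with 10 of 42 higher (16 with libraries scaled to equal totals) and 9 lower, and their median of -0.04 changed its sign with the scaling.

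The hormone genes and most genes that make a β-cell fell. Ins2 stood at 955582, 962582, 855078, 705555 and 608181 in the GFP libraries and at 668919, 459761, 544160.1, 372406 and 432199 in the ca-Nfatc2 libraries, lower on all 5 days, but replicate 1 with ca-Nfatc2 overlapped the GFP range (log2 change -0.73, SE 0.21, limma adjusted p = 0.00618). This call was lost under quantile normalization (limma adjusted p = 1), which gives the most abundant gene of every library the same value, and without the filter on low genes. Iapp (chromosome 6, 142298423 to 142303961, plus strand), the islet amyloid peptide released with insulin, stood at 490967, 443877, 368460.5, 390678 and 327048 in the GFP libraries and 156687, 94067, 128288, 74805 and 112726 in the ca-Nfatc2 libraries, with no overlap (log2 change -1.87, SE 0.18, limma adjusted p = 7.47e-08, and 0.0646 without the filter). Under quantile normalization the Iapp log2 fold change was -0.74. Ucn3, a peptide of mature β-cells, was at 10393, 7285, 7468, 6563 and 6036 and 2451, 1176, 1959, 482 and 1033, with replicate 4 lowest (log2 change -2.59, SE 0.30, limma adjusted p = 6.96e-07). G6pc2, a glucose phosphatase of islets, fell from 21162 ± 3844 to 6718 ± 2604 (log2 change -1.74, limma adjusted p = 1.69e-06) and the prohormone convertase Pcsk2 from 70842 ± 5309 to 31391 ± 4666 (log2 change -1.18, limma adjusted p = 7.85e-09). Of 19 genes of insulin and prohormone processing 13 fell (6 without the filter) and 2 rose, Scg5 and Chgb (4 with the replicate block). The granin Chgb rose from 29478 ± 2359 to 42982 ± 1760.2 (log2 change 0.55, limma adjusted p = 5.04e-06), while Chga fell from 107474 ± 15483 to 77640.1 ± 15311 (limma adjusted p = 0.00451), a call lost under quantile normalization (0.484) and without the filter (0.201).

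Among β-cell transcription factors 18 of 21 fell and 1 rose, Isl1, or 2 with the day as a replicate block and without GFP replicate 3 (median log2 change -0.70). Mafa (chromosome 15, 75745490 to 75748228, minus strand), an activator of the insulin genes, stood at 548, 566, 890.5, 706 and 362 in the GFP libraries and 189.7, 187, 228, 30.98 and 74.5 in the ca-Nfatc2 libraries, and replicate 4 was again lowest (log2 change -2.36, SE 0.42, limma adjusted p = 8.49e-05). Pdx1, needed for β-cell identity, fell from 2904 ± 458 to 1019.9 ± 264 (log2 change -1.54, limma adjusted p = 7.59e-08), Mlxipl, the glucose-responsive factor ChREBP, from 4889.5 ± 707 to 1684 ± 525 (log2 change -1.59, limma adjusted p = 5.33e-07) and Nkx6-1 from 2801 ± 644 to 1899 ± 309 (log2 change -0.54, limma adjusted p = 0.00252, with overlapping groups). Rfx6, Foxa2 and Nkx2-2 fell, with log2 changes of -1.48, -1.44 and -1.36. Hnf4a was at 575 ± 76.5 and 618 ± 135 and did not pass (limma adjusted p = 0.578).

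Genes by which β-cells sense glucose and fire fell in 16 of 20 cases, and 1 rose, the Ca2+ channel gene Cacna1c (median log2 change -0.87). Slc2a2, the glucose transporter of mouse β-cells, stood at 11090.3, 8046, 7690.4, 5804 and 5609 in the GFP libraries and 2303, 1354, 2062, 569 and 1013 in the ca-Nfatc2 libraries (log2 change -2.51, SE 0.30, limma adjusted p = 7.76e-07). Slc30a8 (chromosome 15, 52295553 to 52335798, plus strand), the zinc transporter of insulin granules, was at 15338, 13988, 12860.1, 10790.0 and 10083 and 3965, 2991, 3719, 1312 and 2432 (log2 change -2.21, SE 0.22, limma adjusted p = 9.13e-08). In both genes the groups did not overlap and replicate 4 was the lowest with ca-Nfatc2. The fatty acid receptor Ffar1 fell from 513 ± 75.7 to 90.3 ± 45.6 (log2 change -2.63, limma adjusted p = 8.87e-08), the channel Trpm5 from 936 ± 226 to 192 ± 101 (log2 change -2.43, limma adjusted p = 1.09e-06), and the KATP channel genes Kcnj11 and Abcc8 had log2 changes of -1.60 and -0.52.

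The exocytosis machinery also fell: 15 of 22 genes were lower and 0 higher (1 with equal totals, with the replicate block, without GFP replicate 3 or without ca-Nfatc2 replicate 4), with a median of -0.76. Rab37, a small GTPase of secretory granules, fell from 3612 ± 324 to 706 ± 197 (log2 change -2.39, limma adjusted p = 5.65e-11), the synaptotagmin Syt13 from 13714 ± 2145 to 4414 ± 832 (log2 change -1.64, limma adjusted p = 2.5e-09) and the granule protein Sytl4 from 8147 ± 1697 to 2767 ± 745 (log2 change -1.58, limma adjusted p = 1.3e-07). The Ca2+ sensor Syt7 and the SNARE gene Snap25 fell, with log2 changes of -0.86 and -0.48.

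The fall was not limited to β-cell genes. Of 15 markers of α-, δ-, PP and ε-cells 14 fell, with a median log2 change of -1.43, and 1, the ghrelin gene Ghrl, did not pass (limma adjusted p = 0.168, and 0.0178, lower, under quantile normalization). Sst, somatostatin of δ-cells, stood at 14033, 23372, 28093, 22825 and 21071 in the GFP libraries and 1803, 2530.0, 3868, 1897 and 2428 in the ca-Nfatc2 libraries, far apart in each day's pair (log2 change -3.15, SE 0.19, limma adjusted p = 1.48e-10). Pyy fell from 19485 ± 2917 to 3460.0 ± 1040.5 (log2 change -2.53, limma adjusted p = 1.46e-10) and Gcg from 477245 ± 81549 to 175987 ± 20618 (log2 change -1.43, limma adjusted p = 8.49e-08), but under quantile normalization the glucagon gene came out higher (log2 change 0.14, limma adjusted p = 0.148) and without the filter it did not pass (0.398). The δ-cell factor Hhex fell (log2 change -2.40). The receptor Ghsr, which δ-cells express, fell from 191 ± 24.9 to 19.7 ± 7.54 (log2 change -3.29, limma adjusted p = 3.35e-10).

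**Figure D3:**
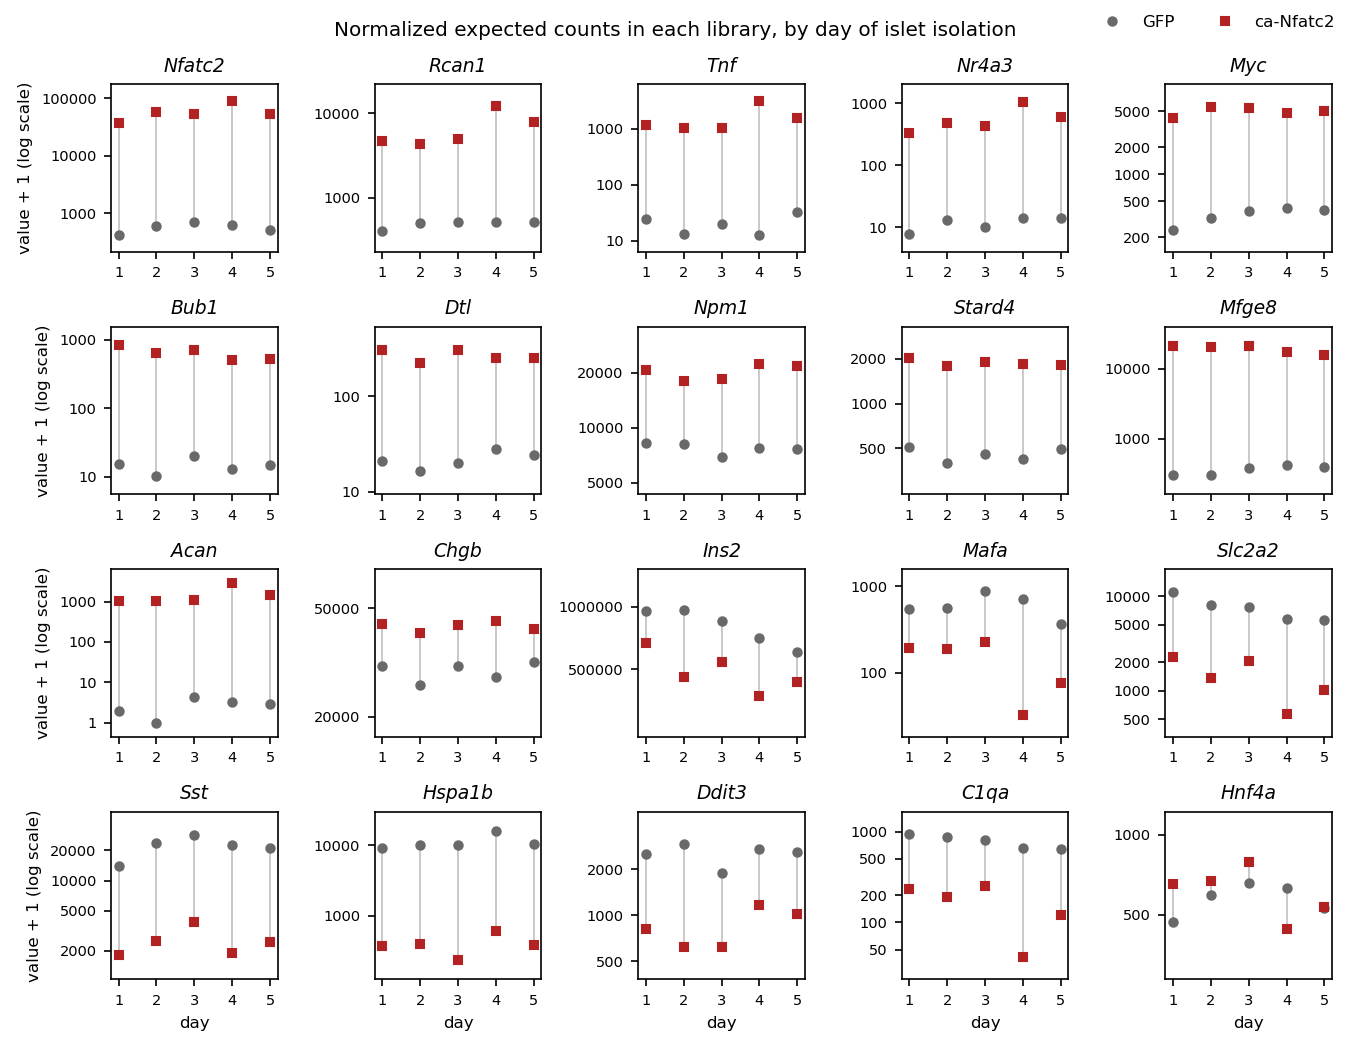
Normalized expected counts plus 1 (log axis) of 20 genes on each of the 5 days, with a grey line between the GFP library (circle) and the ca-Nfatc2 library (square) of a day. The groups do not overlap in 18 panels, and they overlap for Ins2, which was lower on each day, and for Hnf4a. The panels were picked with the values known, so this count does not describe genes at large. Of all genes tested, every ca-Nfatc2 library was above every GFP library in 27.7% and below in 24.3%.

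Genes that mark progenitors or dedifferentiated β-cells did not move as 1 group. Of 12 tested, 5 rose and 5 fell, and the sign of their median changed with the scaling. Sox9, a factor of duct and progenitor cells, stood at 4.798, 18.8, 26.8, 22.2 and 32.2 in the GFP libraries and 143, 180.5, 186, 122 and 141 in the ca-Nfatc2 libraries (log2 change 3.02, SE 0.34, limma adjusted p = 3.55e-07). Neurog3, the factor that starts endocrine differentiation, fell from 106 ± 21.5 to 24.3 ± 12.1 (log2 change -2.23, limma adjusted p = 6.73e-06), as did the dedifferentiation marker Aldh1a3 (log2 change -1.04). Of 31 genes that mature β-cells keep low, 12 rose and 10 fell (16 under quantile normalization), and the sign of their median also changed with the scaling. Zyx, an adhesion protein, stood at 123, 169, 201, 181 and 232 in the GFP libraries and 1326, 1841, 1795, 3013 and 1953 in the ca-Nfatc2 libraries (log2 change 3.42, SE 0.18, limma adjusted p = 1.7e-11), and Rest, a repressor of neuronal genes, rose from 79.1 ± 23.1 to 248 ± 21.8 (log2 change 1.69, limma adjusted p = 5.12e-08). Catalase (Cat) fell (log2 change -1.19), and so did Hsd11b1, which makes active glucocorticoid (log2 change -1.23).

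Chaperone genes were lower with ca-Nfatc2 both in the cytosol and in the endoplasmic reticulum. Of 23 heat shock genes 17 fell and 1 rose, Hspa4l, or 2 with equal totals (median -0.62). Hspa1b (chromosome 17, 34956436 to 34959238, minus strand), the inducible Hsp70, stood at 9114, 9964, 9917, 15974 and 10256 in the GFP libraries and 379, 401, 236, 606 and 392 in the ca-Nfatc2 libraries, and replicate 4 was highest in both groups (log2 change -4.80, SE 0.21, limma adjusted p = 1.46e-12). The near-identical Hspa1a fell from 5093 ± 1284 to 365 ± 148 (log2 change -3.86, limma adjusted p = 1.64e-10), and because both genes share most of their sequence, how the reads divide between them is not certain. Hspb1 (Hsp27) fell from 441 ± 61.8 to 59.8 ± 15.6 (log2 change -2.89, limma adjusted p = 8e-11) and Hsp90aa1 from 52770.5 ± 6230.1 to 23176 ± 2197 (log2 change -1.18, limma adjusted p = 6.26e-09). Hspa4 was at 5569.8 ± 157 and 5953 ± 335 (limma adjusted p = 0.13, and 0.02 with equal totals). Of 25 genes of the unfolded protein response 21 fell and 2 rose, Manf and Dnajc3 (median -0.56). Ddit3 (CHOP), a factor of lasting stress, fell from 2532 ± 394 to 849 ± 244 (log2 change -1.61, limma adjusted p = 2.24e-07), Trib3 from 2219.8 ± 356 to 789 ± 203 (log2 change -1.51, limma adjusted p = 2.18e-07), and the sensor Ern1 and its target Xbp1 had log2 changes of -0.92 and -1.10.

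The DNA before Hspa1b and Hspa1a is shown because they fell most among the heat shock genes and their starts can be compared. Capitals mark the heat shock element GAANNTTC, which begins 104 bases before the start in both Hspa1b (chr17:34959239-34959488, minus strand) and Hspa1a (chr17:34972157-34972406, minus strand). The stretches are identical at 247 of 250 bases.
Hspa1b: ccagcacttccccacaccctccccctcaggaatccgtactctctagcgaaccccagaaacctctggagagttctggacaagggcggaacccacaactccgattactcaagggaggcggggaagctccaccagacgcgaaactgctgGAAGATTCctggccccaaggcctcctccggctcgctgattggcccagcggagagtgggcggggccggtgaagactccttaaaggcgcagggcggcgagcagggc
Hspa1a: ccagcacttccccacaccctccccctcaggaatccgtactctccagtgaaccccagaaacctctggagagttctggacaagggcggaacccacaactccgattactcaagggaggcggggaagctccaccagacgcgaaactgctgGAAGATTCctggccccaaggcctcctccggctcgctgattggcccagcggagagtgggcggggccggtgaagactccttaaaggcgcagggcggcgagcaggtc

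GAANNTTC, which reads alike on both strands, was in 7 of 22 starts of the heat shock list (31.8%), against 5.11% of the starts of genes tested.

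Genes of the interferon response were mostly lower or unmoved, with 14 of 29 lower and 2 higher, Gbp3 and Tap1. These were 48.3% and 6.9% of the list, against 32.8% and 35.7% of all genes tested. With the replicate block 6 were higher, and without GFP replicate 5 there were 4. Ifit3 fell from 492 ± 148 to 173 ± 110.3 (log2 change -1.68, limma adjusted p = 0.00025, overlapping groups) and Oasl1 from 103 ± 17.7 to 42.1 ± 18.2 (log2 change -1.36, limma adjusted p = 7.27e-05, no overlap). B2m was at 7800.3 ± 2023 and 7086 ± 2244 and did not pass (limma adjusted p = 0.519). Of 19 p53 targets 11 fell (57.9%, against 32.8% of all genes tested) and 6 rose (31.6%, against 35.7%). Eda2r, a death receptor, rose from 116 ± 19.2 to 432 ± 79.8 (log2 change 1.88, limma adjusted p = 7.42e-10). Sesn2, a stress sensor, fell from 2229 ± 408 to 982 ± 167 (log2 change -1.18, limma adjusted p = 1.62e-06). Of housekeeping genes often used as references, Rplp0 rose from 11916 ± 435 to 23644 ± 2248 (log2 change 0.98, limma adjusted p = 3.9e-09), while Actb was at 7196 ± 409.8 and 7814 ± 734 (limma adjusted p = 0.181).

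Growth factors and their receptors showed no common direction, with 8 of 27 higher, 8 lower and a median whose sign changed with the scaling. Each count was 29.6% of the list, against 35.7% higher and 32.8% lower of all genes tested. Ereg, an EGF receptor ligand, rose from 10.3 ± 7.55 to 96.3 ± 73.7 (log2 change 3.004, limma adjusted p = 7.55e-06) and Igf2 from 56.7 ± 11.1 to 207 ± 23.1 (log2 change 1.87, limma adjusted p = 4.1e-09). The receptor gene Met rose by 1.66 on the log2 scale, whereas its ligand Hgf fell from 53.6 ± 9.08 to 17.5 ± 8.12 (log2 change -1.68, limma adjusted p = 7.77e-05). Vegfa, by which islets keep their vessels, fell from 7399 ± 376 to 4089.7 ± 129 (log2 change -0.85, limma adjusted p = 7.49e-11). The prolactin receptor gene Prlr was at 3619 ± 498 and 3503 ± 328 (limma adjusted p = 0.667).

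Markers of the other cells in an islet preparation were compared as lists, since such cells can carry part of a change. Their part in the results above was not tested. The summed level of the acinar markers (11 of 26 above the filter, with Cela3b, Pnlip, Cpb1 and Prss1 below it) was 748 to 956 with GFP and 615 to 799.8 with ca-Nfatc2. The duct markers summed to 19877 to 21211 and 10955 to 21788 (5 of 11 rose and 5 fell), with Muc1 at 50.6 ± 9.75 and 2105 ± 1674 (log2 change 5.05, limma adjusted p = 1.14e-09) and Cldn4 at 2680.0 ± 175 and 881 ± 159.8 (log2 change -1.62, limma adjusted p = 2.01e-10). Endothelial markers summed to 4344 to 6187 and 3486 to 4364 (10 of 16 fell and 1 rose, Esam), and Emcn fell from 506 ± 71.99 to 282 ± 47.3 (log2 change -0.85, limma adjusted p = 1.21e-05). Of the endothelial markers tested 62.5% fell and 6.25% rose, against 32.8% and 35.7% of all genes tested. Stellate and fibroblast markers summed to 4898 to 8187 and 3401 to 5577 (7 of 13, or 53.8%, fell and 0 rose).

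Macrophage markers summed to 2611 to 3562 with GFP and 2249.6 to 3284 with ca-Nfatc2, and 9 of 19 fell while 3 rose. These were 47.4% and 15.8% of the markers tested, against 32.8% and 35.7% of all genes tested. The complement gene C1qa stood at 941, 864, 815, 662 and 644 in the GFP libraries and 235, 188, 249, 40.7 and 121 in the ca-Nfatc2 libraries (log2 change -2.46, SE 0.35, limma adjusted p = 7.08e-06), and Csf1r, the receptor for the macrophage growth factor, rose from 93.7 ± 12.3 to 443 ± 348 (log2 change 1.97, limma adjusted p = 1.29e-05). Of 16 T and B cell markers 6 passed the filter, and the defining Cd3d, Cd3e, Cd3g, Cd4 and Ms4a1 did not. All 16 together, also those below the filter, summed to 149 to 253 with GFP and 109 to 326 with ca-Nfatc2. Lck, a kinase of T cells, was at 29.5 ± 7.203 and 79.3 ± 48.05 (log2 change 1.24, limma adjusted p = 0.00137, overlapping groups).

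**Figure D4:**
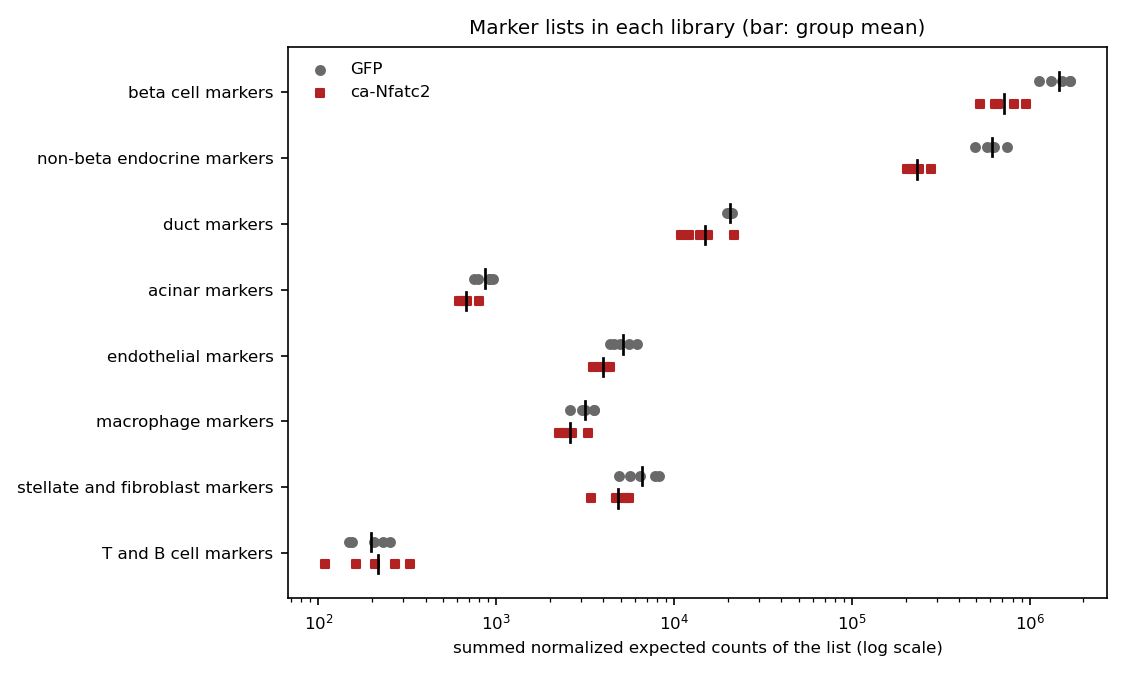
Summed normalized expected counts (log axis) of the markers of each cell type, also those below the filter. Each library is 1 point, with GFP above ca-Nfatc2 in each row and a bar at the group mean. Endothelial markers summed to 4344 to 6187 with GFP and 3486 to 4364 with ca-Nfatc2, while the sums of β-cell markers and of non-β endocrine markers do not overlap between the groups. Hormone genes make up most of these last sums, with GFP means of 817396 for Ins2 and 477245 for Gcg. The calls of both genes were lost under quantile normalization.

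The mouse homologues of genes reported near type 2 diabetes loci in people were the study's own list. Of 141 symbols 136 were found, 120 were tested, and 37 rose while 44 fell, with 18 at least 2-fold higher and 16 at least 2-fold lower (of all genes tested, 13.1% and 7.25%). The rises were 30.8% and the falls 36.7% of the homologues tested, near the 35.7% and 32.8% of all genes. The study chose to describe some of them on these libraries. Lgr5 (chromosome 10, 115450311 to 115587780, minus strand), a receptor of stem cells in the gut, stood at 10.04, 5.05, 13.2, 21.5 and 16.7 in the GFP libraries and 879.5, 826, 796, 1072 and 847 in the ca-Nfatc2 libraries (log2 change 6.08, SE 0.24, limma adjusted p = 4.07e-13). Rbm38, which binds the mRNA of p21, rose from 42.1 ± 8.103 to 454 ± 69.6 (log2 change 3.41, limma adjusted p = 5.61e-13), Tcf7l2, a factor of Wnt signalling, from 73.3 ± 16.6 to 208 ± 55.8 (log2 change 1.48, limma adjusted p = 7.62e-07), and Prox1 from 1048 ± 153 to 3029 ± 454 (log2 change 1.53, limma adjusted p = 1.58e-09). Wfs1, a protein of the endoplasmic reticulum, rose from 1816 ± 208 to 2916 ± 290.4 (log2 change 0.69, limma adjusted p = 1.06e-06). Tspan8 fell from 1469 ± 192 to 301 ± 82.7 (log2 change -2.32, limma adjusted p = 4.63e-10), St6gal1 from 1116 ± 117 to 576 ± 95.7 (log2 change -0.96, limma adjusted p = 3.36e-07) and Pparg from 551 ± 30.1 to 276 ± 42.9 (log2 change -1.01, limma adjusted p = 4.37e-08). Snd1 was at 5620.5 ± 555 and 6014 ± 691 and did not pass (limma adjusted p = 0.362).

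Some of the largest falls belonged to genes outside these lists. Ugt2b35 (chromosome 5, 87000860 to 87013275, plus strand), an enzyme that couples glucuronic acid to its substrates, stood at 108, 176, 176, 107 and 134 in the GFP libraries and 6.06, 3.68, 4.21, 4.43 and 0.876 in the ca-Nfatc2 libraries (log2 change -4.95, SE 0.35, limma adjusted p = 1.15e-09). Gfra3, a receptor for the growth factor artemin, was at 116, 116, 207, 119 and 149 and 12.99, 13.5, 21.1, 12.4 and 12.3 (log2 change -3.19, SE 0.20, limma adjusted p = 1.56e-10). Both genes lay far below the GFP range in every ca-Nfatc2 library. The neuronal pentraxin Nptx2 fell from 113 ± 31.8 to 13.6 ± 6.46 (log2 change -3.07, limma adjusted p = 5.49e-07) and the monooxygenase Fmo1 from 168 ± 28.8 to 25.7 ± 18.1 (log2 change -2.92, limma adjusted p = 1.12e-06).

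Set against ca-Nfatc1, 3335 genes (23.6% of those tested) were higher and 3639 (25.7%) lower with ca-Nfatc2. Because both were compared with the same GFP libraries, this difference was tested directly between the ca-NFAT libraries. The mitosis genes were higher with ca-Nfatc2 in 37 of 38 cases, the replication genes in 41 of 43 and the nucleolar genes in 30 of 30. For Bub1 the difference on the log2 scale was 3.09 (limma adjusted p = 7.96e-10), for Dtl 4.42 (6.96e-12) and for Myc 3.16 (5.65e-12). Ndc80 was the mitosis gene that did not pass (-0.35, limma adjusted p = 0.0868). Heat shock genes were higher with ca-Nfatc2 than with ca-Nfatc1 in 14 of 23 cases and lower in 3, although most were lower than with GFP. Lower with ca-Nfatc2 than with ca-Nfatc1 were 13 of 20 genes of glucose sensing, 14 of 22 of exocytosis, 14 of 25 of the unfolded protein response and 9 of 15 non-β endocrine markers. For Slc2a2 the difference was -0.80 (limma adjusted p = 0.0331) and for Sst -1.23 (5e-05), while for Mafa it was -0.94 (0.0734) and did not pass. Of 20 NFAT targets of lymphocytes 7 were higher and 5 lower with ca-Nfatc2 than with ca-Nfatc1, among them Pdcd1 (1.89, limma adjusted p = 1.44e-05), Nr4a1 (1.78, 7.87e-09) and Nr4a2 (1.01, 1.15e-05), all 3 higher. The differences for Rcan1 (0.30, limma adjusted p = 0.257), Tnf (0.12, 0.778), Nr4a3 (0.37, 0.239) and Mfge8 (0.04, 0.81) did not pass, which does not show that the ca-NFATs act alike on them.

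Within the ca-Nfatc2 group a few genes varied widely between libraries. The haemoglobin gene Hbb-bs, of red blood cells, stood at 0, 52.4, 37.7, 379 and 0 in the GFP libraries and 67.8, 60.2, 0, 38.2 and 47493 in the ca-Nfatc2 libraries. Its high mean thus came from replicate 5 alone and it did not pass (limma adjusted p = 0.297), and the same held for Hba-a1, Hba-a2 and Hbb-bt, at 19868, 39590.2 and 11929 in replicate 5. Chi3l1, a chitinase-like protein of inflamed tissue, was at 51.96, 14.7, 19.99, 1253 and 285 in the ca-Nfatc2 libraries and 7.83 to 17.8 with GFP (log2 change 2.69, limma adjusted p = 0.0127, overlapping groups). The Chi3l1 log2 fold change was 1.745 without ca-Nfatc2 replicate 4 and 3.32 without ca-Nfatc2 replicate 2.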

How the data were processed

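Mouse islets were taken for RNA-sequencing 48 hr after the virus was added, and 5 ca-Nfatc2 libraries were compared with 5 GFP libraries. The authors aligned reads to the mm10 refseq with bowtie and used RSEM to obtain an expected count for each gene. They divided it by a median-by-ratio size factor, and the authors deposited the result, a signal in normalized expected counts that are not whole reads. Versions of bowtie and RSEM are not given in the sources used here. The authors' columns of group means, fold changes and posterior probabilities in the deposited table were not used.

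Values were taken to log2 after adding 1. Genes whose 75th percentile over the libraries was above 10 entered a limma model (limma 3.58.1, R 4.3.3) with a variance trend, all 15 libraries and 1 coefficient per group, and tested two-sided with Benjamini-Hochberg adjustment and a threshold of 0.05. Replicates are pools of islets from separate days, and p-values measure the spread between libraries of separate pools. The days pair the libraries, because each day's pool was split over the viruses. The residuals of same-day libraries correlated at 0.0789 to 0.473 (mean 0.227), against a mean of -0.0573 for other days. The replicate block, a fit with a term for the day, is given where it changed a call. Other alternatives were a pseudocount of 0.5 or 10, no filter, a mean of at least 100, equal totals, quantile normalization, a fit of the 10 libraries, and leaving out each library. Python 3.11.15, pandas 2.3.3, numpy 2.4.6 and matplotlib 3.10.9 served for tables and figures.

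The lists of genes and the rule for naming genes were chosen with earlier results of these data known. Named were the 15 largest rises and falls that passed with a mean of at least 100 and 1 direction on 5 days, the 8 largest gains and losses in level, the 3 largest changes of each list and its most abundant gene that did not pass, the 6 genes with the widest spread, genes the study names, and β-cell markers. The text names those that a statement needed, and other list members were named after their values were seen. A date in place of a gene symbol, in 22 entries tested, was not named, and some genes are not reported here. Promoter sequences are from RefSeq (GRCm38.p6, the build of mm10) and gene positions from a GENCODE annotation of the same build. The commonest value near 1 in a library was taken as the value of 1 expected count, which gave its depth.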

Additional observations from a re-analysis of the deposited data

Results flagged for a closer look

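Some libraries stood apart from the other 4 of their group. Dixon's test at the 95% level marks a library whose gap to its nearest neighbour is over 0.71 of the group's range, and chance marks about 1 in 20 groups. Among genes named in the report with a group mean of at least 10, 28 of 363 groups were marked. Some of these genes were named because they varied most between the ca-Nfatc2 libraries. Hbb-bs, Hba-a1, Hba-a2, Hbb-bt and Chi3l1 are among them, so this count cannot be set against chance. The values are normalized expected counts, with the range of the other 4 libraries in parentheses.

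GFP replicate 1 stood apart with Ern1 at 4071 (5133 to 5543), Gsk3b at 1970.4 (2388 to 2495) and Hhex at 245 (332 to 357). It did so too with Prlr at 4465 (3249 to 3594) and Rcan1 at 408 (509.8 to 523). GFP replicate 2 stood apart with Cdkn2b at 236 (207 to 212). GFP replicate 3 stood apart with Abcc8 at 16249 (13151 to 13985) and Hsp90aa1 at 41795 (54435 to 57200.3). GFP replicate 4 stood apart with Hba-a1 at 172 (0 to 26.9), Hba-a2 at 379.8 (0 to 71.99) and Hbb-bs at 379 (0 to 52.4). It did so too with Hbb-bt at 118 (0.921 to 22.6), Hspa1b at 15974 (9114 to 10256) and Tk1 at 9.99 (16.6 to 19.2). ca-Nfatc2 replicate 2 stood apart with Chrnb2 at 5086 (4535 to 4605). ca-Nfatc2 replicate 3 stood apart with Gfra3 at 21.1 (12.3 to 13.5). ca-Nfatc2 replicate 4 stood apart with Cdc20 at 828 (230.3 to 324), Chi3l1 at 1253 (14.7 to 285) and Csf1r at 1047 (236 to 437). It did so too with Jun at 784 (456 to 527), Pdcd1 at 142 (54.2 to 65.7) and Pfkp at 2942 (2284 to 2467). It did so too with Slc6a13 at 2502 (802 to 1165) and Tnf at 3164 (1048 to 1584). ca-Nfatc2 replicate 5 stood apart with Hba-a1 at 19868 (0 to 50.5), Hba-a2 at 39590.2 (0 to 57.5) and Hbb-bs at 47493 (0 to 67.8). It did so too with Hbb-bt at 11929 (0 to 12.2).

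Over all genes with a group mean of at least 100, the share in which a library stood apart was 3.99% for GFP replicate 1, 2.4% for ca-Nfatc2 replicate 1 and 2.32% for ca-Nfatc2 replicate 4, and 0.235% to 0.9% for the other 7 libraries. What sets these libraries apart was not tested.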

How the results depend on the processing

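With a mean of at least 100 fewer genes were tested (10925), and 1015 were at least 2-fold higher and 570 at least 2-fold lower. Gcg changed its direction under quantile normalization (log2 fold change 0.14, limma adjusted p = 0.148). Quantile normalization moved the median log2 fold change of all genes from 0.006 to -0.099, and gave 4274 higher and 5643 lower genes (43.1% of the calls higher), against 52.1% in the fit as reported. Equal totals gave 5490 and 4173 (56.8% higher, median 0.065). With the day as a replicate block 5447 genes were higher and 5159 lower. Leaving out 1 library in turn gave 4870 to 5029 higher and 4493 to 4642 lower genes. Over all pairs of a named gene and an alternative that keeps all libraries, a call was lost 11 times and gained 18 times, and 1 direction reversed, while leaving out 1 library added a call 13 times and ended none. Of the list counts 36 moved by over 1.5 times under such settings, in part because a mean of at least 100 left fewer members to test, and 12 without 1 library. Adding 10 in place of 1 moved genes low in a group most, and took the Ccr3 log2 fold change from 8.20 to 6.07. Other calls of named genes did not change with the replicate block, apart from Try5, Eng, Lyz2, Thy1, Dnajb11, Fdft1 and Rfc5, which it added. For genes with a mean under 100 the median standard error was 0.258, against 0.102 over all genes, so their changes are less precise.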
